A study of Mus musculus with 45 samples.

Results

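The genes examined are 10 genes of the endoplasmic reticulum (ER) stress response, namely Hspa5, Hsp90b1, Pdia4, Sdf2l1, Creld2, Dnajb9, Xbp1, Atf4, Ddit3 and Herpud1. They were chosen by name, each matched 1 of the 24918 entries in the table of gene counts, and all 10 were among the 12961 entries abundant enough to be tested. RNA-seq measured them in the colonic epithelium, stripped from the whole colon with EDTA, of male C57BL/6 mice (C57BL/6J in the study's methods) that were 6 weeks old when the diets began. Control mice (LF) ate a 10% fat diet for 20 weeks, obese mice (HF) a 60% fat diet for 20 weeks, and formerly obese mice (HFLF) had 15 weeks on the high-fat diet before 5 weeks on the low-fat diet. Each group held 5 mice, and all mice were of the same age at the end. The comparisons ask whether a high-fat diet altered these genes and whether such a difference was still seen after the return to a low-fat diet.

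The ER folds proteins bound for secretion or for membranes, and epithelia that make mucus and ion transporters depend on it. When unfolded proteins build up there, sensors in the ER membrane start the unfolded protein response. The sensor IRE1 splices the messenger RNA of Xbp1, the sensor ATF6 is cut to release a transcription factor, and the sensor PERK slows translation while the protein ATF4 is still made. XBP1 and ATF6 switch on chaperones and degradation factors of the ER, whereas ATF4 switches on amino acid genes and Ddit3, which encodes the pro-apoptotic factor CHOP. Among the 10 genes, Hspa5 encodes BiP, the main chaperone of the ER, Hsp90b1 the HSP90 of the ER, Pdia4 a protein disulfide isomerase, Sdf2l1 a partner of BiP, Creld2 a stress-induced folding factor, Dnajb9 a cochaperone of BiP, and Herpud1 a component of ER-associated degradation. A count per gene does not separate spliced from unspliced Xbp1, and ATF4 is controlled largely at translation, so neither activity was measured.

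The DNA just before the start of some of these genes is shown because elements through which ATF6 and XBP1 are known to act can lie there. The ER stress response element (ERSE), its shorter variant ERSE-II, the core of the unfolded protein response element and the core of the amino acid response element bound by ATF4 were searched as exact matches on both strands from 250 bases before to 50 bases after each RefSeq start. ERSE was found in 3 of the 10 genes (Hspa5, Hsp90b1 and Creld2) and in 0.119% of 32851 windows of the same length. Hsp90b1 held it on each strand. ERSE-II was found in Herpud1, and in 0.0365% of all windows, and the amino acid response element core was also found in Herpud1, and in 3.97% of all windows. No window of the 10 genes held the unfolded protein response element core, which 0.676% of all windows held. The 250 bases before the start of the 4 genes with a match and of Pdia4, which had none, are given 5′ to 3′ on the strand of the gene from GRCm38.p6 (RefSeq), with the matches in capitals.
Hspa5 (chr2:34771840-34772089, plus strand): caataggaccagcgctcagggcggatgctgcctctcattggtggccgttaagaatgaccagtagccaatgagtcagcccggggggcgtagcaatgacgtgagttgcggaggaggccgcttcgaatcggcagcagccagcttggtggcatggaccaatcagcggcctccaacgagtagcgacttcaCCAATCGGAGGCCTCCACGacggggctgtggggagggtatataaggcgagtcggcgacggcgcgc
Hsp90b1 (chr10:86705445-86705694, minus strand): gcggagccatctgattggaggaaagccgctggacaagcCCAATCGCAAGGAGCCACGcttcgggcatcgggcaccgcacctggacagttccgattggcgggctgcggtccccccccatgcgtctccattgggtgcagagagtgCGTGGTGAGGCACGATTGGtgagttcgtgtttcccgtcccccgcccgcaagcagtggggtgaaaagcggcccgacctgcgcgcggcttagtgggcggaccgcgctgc
Creld2 (chr15:88819396-88819645, plus strand): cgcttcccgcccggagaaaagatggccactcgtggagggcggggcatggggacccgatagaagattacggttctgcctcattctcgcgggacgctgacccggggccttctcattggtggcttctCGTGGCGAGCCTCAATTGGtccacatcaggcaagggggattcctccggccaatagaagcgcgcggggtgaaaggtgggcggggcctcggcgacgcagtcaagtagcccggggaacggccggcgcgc
Herpud1 (chr8:94386179-94386428, plus strand): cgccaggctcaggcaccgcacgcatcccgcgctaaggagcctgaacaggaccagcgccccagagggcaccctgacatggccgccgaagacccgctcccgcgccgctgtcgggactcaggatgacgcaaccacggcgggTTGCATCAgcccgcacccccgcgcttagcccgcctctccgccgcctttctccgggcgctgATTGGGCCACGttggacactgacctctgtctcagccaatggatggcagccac
Pdia4 (chr6:47813513-47813762, minus strand): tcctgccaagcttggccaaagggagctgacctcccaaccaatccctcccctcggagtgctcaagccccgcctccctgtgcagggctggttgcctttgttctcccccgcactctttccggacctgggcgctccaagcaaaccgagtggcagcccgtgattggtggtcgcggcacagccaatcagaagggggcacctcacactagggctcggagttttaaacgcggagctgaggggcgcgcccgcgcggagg
The Hspa5 match lies 65 to 47 bases before the start, the Creld2 match 126 to 108 bases before it, and the Herpud1 ERSE-II match 52 to 42 bases before it. Hsp90b1 has its matches 212 to 194 and 107 to 89 bases before the start. A match is a description of the reference sequence and was not measured as bound in these mice.

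The 15 libraries held 15230391 to 22762095 gene counts, with the highest total in formerly obese replicate 3. Depth went along with group. All formerly obese libraries but the lowest held 17408180 to 22762095 counts, more than any control or obese library (at most 16749096). The lowest formerly obese library held 16114562. The part of depth in the differences between groups was not tested. No pair of replicates agreed within sampling noise. The labels name 5 mice per group, and no sequencing batch. Epithelial markers were abundant, with summed levels in CPM, counts scaled to a common library size, of 11630 to 15370 for 15 goblet cell genes in all libraries, while 7 of 11 smooth muscle and fibroblast markers and 10 of 12 plasma and B cell markers were too low to be tested. The plasma cell genes Igj and Mzb1 had mean CPM of at most 0.471 and 0.0954 in any group.

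Per kilobase of exon, Hsp90b1 and Hspa5 were the most abundant of the 10 genes, with a mean level of 228.9 ± 19.5 and 204.6 ± 38.4 CPM per kb (SD, n = 15). Atf4 (98.3 ± 4.502), Xbp1 (95.3 ± 9.97) and Herpud1 (82.96 ± 11.8 CPM per kb) followed, and the spread of each of these overlapped that of the next. Pdia4 had 50.2 ± 4.66, Dnajb9 31.1 ± 3.90, Sdf2l1 24.2 ± 3.47 and Creld2 23.2 ± 2.89 CPM per kb, with the last pair indistinguishable. Ddit3 was lowest, with 5.12 ± 0.65 CPM per kb. Hspa5 varied most between mice, with a coefficient of variation of 18.8% and a 2.06-fold span from lowest to highest level, and Atf4 least, with 4.58% and 1.16-fold.

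**Figure D1:**
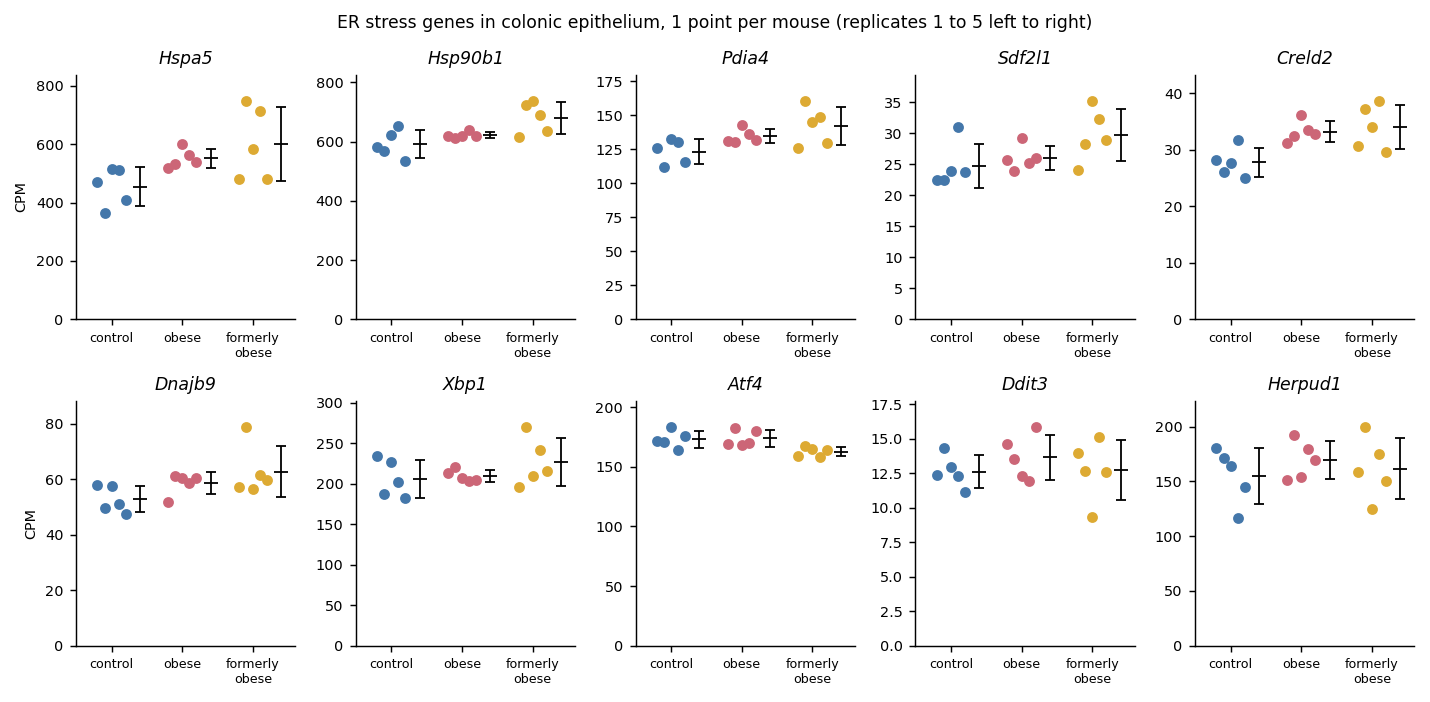
Level of each of the 10 genes in CPM (y axis, from 0) by group (x axis), with 1 point per mouse, replicates 1 to 5 from left to right, and the mean ± SD (n = 5) in black beside them. The 5 obese mice lie above all control mice for Hspa5, formerly obese replicate 2 is the highest of all mice for 5 of the genes, and the formerly obese mice lie below all obese mice for Atf4.

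In obese mice, none of the 10 genes passed all criteria of the test against control mice, although all 10 estimates were above 0 (50.1% of all tested genes), of which Atf4 turned to -0.0007 without the filter on low counts. Atf4 also turned below 0 without control replicate 4, obese replicate 2 or obese replicate 5 (down to -0.0128), and Xbp1 without control replicate 2 or 5 (-0.0092 and -0.0153). Calls needed a p-value under 0.01, an adjusted p under 0.25 and a change of more than 1.2-fold in edgeR's quasi-likelihood test, which called 0 of the 10 genes and 1.58% of all tested genes. At an unadjusted p under 0.05 there were 2 of the 10 genes, Hspa5 and Creld2 (10.9% of all genes), and DESeq2 called 0. The median log2 fold change was 0.12 for the 10 genes and 2e-04 for all tested genes.

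Hspa5, which encodes the chaperone BiP, had 471, 363, 516, 513 and 408 CPM in control mice and 519, 532, 601, 563 and 539 CPM in obese mice. Every obese mouse lay above every control mouse, though the lowest obese mouse exceeded the highest control mouse by little. Values without overlap, in either direction, occurred for 2.47% of all tested genes. Its log2 fold change was 0.28 ± 0.12 (SE), with a 95% interval of 0.02 to 0.53 and an adjusted p of 0.418, which missed the threshold. With only control and obese libraries in the fit, and so a spread estimated without formerly obese mice, the adjusted p was 0.237 and Hspa5 was called.

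Creld2, a folding factor induced by ER stress, had 28.2, 26.1, 27.7, 31.8 and 25.0 CPM in control mice and 31.1, 32.3, 36.04, 33.6 and 32.7 CPM in obese mice. Only control replicate 4 reached into the obese range. On the log2 scale the fold change was 0.26 ± 0.08 (SE), with a p of 0.0049 and an adjusted p of 0.225 in edgeR's test, so that Creld2 was the 1 gene of the 10 that passed on both p-values (2.54% of all genes) and fell just short of the fold cutoff of 0.263 on the log2 scale. It was called without control replicate 4 (0.31), without obese replicate 2 (0.27) and after removal of the trend with GC content (0.26).

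For the other 8 genes the obese and control mice overlapped, and the log2 fold changes ran from 0.01 for Atf4 to 0.15 for Dnajb9, with adjusted p-values of at least 0.485. The 95% interval of the log2 fold change was -0.08 to 0.09 for Atf4 and -0.15 to 0.20 for Xbp1. It was -0.13 to 0.36 for Ddit3, the CHOP gene, so that a moderate difference in either direction could not be told from 0 for this low gene.

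In formerly obese mice, 2 of the 10 genes were higher than in control mice by all criteria, Hspa5 and Creld2, against 3.72% of all tested genes. Genes called higher made up 1.85% of all tested genes. At p under 0.01 and adjusted p under 0.25 without the fold cutoff there were 4 of the 10, with Hsp90b1 and Pdia4 in addition (6.96% of all genes), and at an unadjusted p under 0.05 there were 7 (16.7% of all genes). None of the 10 had values without overlap (3.62% of all genes). Estimates were above 0 for 9 of the 10 genes (49.7% of all genes), of which Ddit3 turned to -0.0018 with upper-quartile scaling, and Ddit3 and Herpud1 also turned below 0 when some single libraries were left out (down to -0.0604 and -0.0324). The exception among the 10 was Atf4. Here the median log2 fold change was 0.20, beside -6e-04 over all genes. DESeq2 called the same 2 genes.

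Hspa5 had 479, 748, 582, 712 and 482 CPM in formerly obese mice, against 363 to 516 CPM in control mice. Replicates 2, 3 and 4 lay above all control mice, and replicates 1 and 5 within their range. Its log2 fold change was 0.40 ± 0.12 (SE) and the adjusted p 0.0912 by edgeR's test. The call was lost without control replicate 2 (0.33), control replicate 5 (0.37), formerly obese replicate 2 (0.31) or formerly obese replicate 4 (0.34), and with only these 2 groups in the fit (0.41, adjusted p 0.182).

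Creld2 had 30.6, 37.2, 34.0, 38.6 and 29.6 CPM in formerly obese mice, and replicates 1 and 5 lay below the highest control mouse (31.8). Its log2 fold change was 0.29 ± 0.08 (SE), with an adjusted p of 0.0642 by edgeR's test. Without control replicate 5 (0.26), formerly obese replicate 2 (0.26) or formerly obese replicate 4 (0.24) it fell under the fold cutoff, so none of the 10 genes was called when any of these 3 libraries was left out. Without control replicate 2 the count was 1 of 10, and without formerly obese replicate 1 it was 4.

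Hsp90b1, the HSP90 of the ER, had 583, 569, 624, 651 and 534 CPM in control mice and 615, 724, 738, 689 and 636 CPM in formerly obese mice. Replicates 2, 3 and 4 of the formerly obese mice exceeded the highest control mouse. The log2 fold change was 0.20 ± 0.06 (SE), with an adjusted p of 0.0857 in edgeR's test, under the fold cutoff.

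Pdia4, which forms and rearranges disulfide bonds, had 126, 112, 132, 130.2 and 116 CPM in control mice and 126, 161, 145, 149 and 129 CPM in formerly obese mice. Replicates 2, 3 and 4 were above and replicates 1 and 5 within the control range, as for Hspa5. Its log2 fold change was also 0.20 ± 0.06 (SE), with an adjusted p of 0.108.

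Sdf2l1, the partner of BiP, had 22.5, 22.5, 23.9, 31.0 and 23.7 CPM in control mice and 24.1, 28.2, 35.2, 32.3 and 29.0 CPM in formerly obese mice. All formerly obese mice lay above 4 of the control mice, and control replicate 4 stood apart from its group. For Sdf2l1 the log2 fold change was 0.27 ± 0.10 (SE), with an adjusted p of 0.184 and a p of 0.0174 in edgeR's test, above the threshold of 0.01. Sdf2l1 was called without control replicate 4 (0.36) or formerly obese replicate 1 (0.34) and after removal of the GC trend (0.31).

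Dnajb9, the BiP cochaperone, had 57.9, 49.8, 57.7, 51.3 and 47.6 CPM in control mice and 57.2, 78.8, 56.3, 61.7 and 59.8 CPM in formerly obese mice. Formerly obese replicate 2 was far above the others. For Dnajb9 the log2 fold change was 0.25 ± 0.09 (SE), with a p of 0.0104 and an adjusted p of 0.145 in edgeR's test. It was 0.15 without formerly obese replicate 2, and Dnajb9 was called without control replicate 1 (0.28), control replicate 3 (0.28), formerly obese replicate 1 (0.28) or formerly obese replicate 3 (0.28).

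Xbp1, the transcription factor gene, had 234, 187, 227, 202 and 182 CPM in control mice and 196, 269.8, 209, 241 and 215 CPM in formerly obese mice. The groups overlapped broadly, and replicate 2 was again the highest. The log2 fold change was 0.13 ± 0.08 (SE), with an adjusted p of 0.436.

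Herpud1, of ER-associated degradation, had 181, 171, 164, 116 and 145 CPM in control mice, 151, 193, 154, 179.6 and 169.9 in obese mice and 158, 199.7, 125, 175 and 150.2 in formerly obese mice. Its log2 fold change against control mice was 0.13 ± 0.12 (SE) in obese and 0.06 ± 0.12 in formerly obese mice, with adjusted p-values of 0.754 and 0.859. Control replicate 4, which was the lowest of all mice for Herpud1, was the highest control mouse for Sdf2l1, Creld2 and Hsp90b1.

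Atf4 and Ddit3, of the PERK branch, did not share the higher estimates of the chaperones in formerly obese mice. Atf4 had 172, 171, 183, 164 and 176 CPM in control mice, 169, 183, 168, 169.7 and 180.2 in obese mice and 159, 168, 165, 158 and 164 in formerly obese mice. The formerly obese mice lay below all obese mice, by a narrow margin, and below 4 of the control mice. The log2 fold change of Atf4 was -0.09 ± 0.04 (SE) against control mice, with an adjusted p of 0.265, and -0.10 ± 0.04 against obese mice, with an adjusted p of 0.295.

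Ddit3 had 12.4, 14.3, 13.0, 12.3 and 11.1 CPM in control mice, 14.6, 13.6, 12.3, 11.9 and 15.9 in obese mice and 14.0, 12.7, 9.30, 15.1 and 12.6 in formerly obese mice. The 3 groups overlapped. The log2 fold change of formerly obese against control mice was 0.01 ± 0.12 (SE), with a 95% interval of -0.24 to 0.26. Ddit3 overlaps Mars on the opposite strand and the counting mode for strand was not given, so its counts may include reads of that gene.

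**Figure D2:**
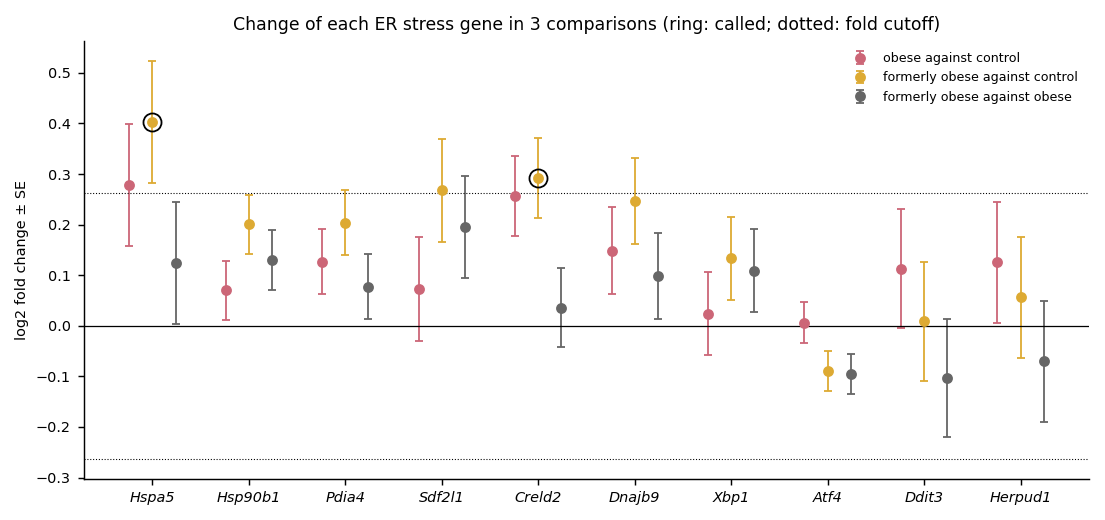
Log2 fold change ± SE (y axis) of each of the 10 genes (x axis) in the 3 comparisons, from the fit to all 15 libraries, with rings around called values and dotted lines at the fold cutoff. Hspa5 and Creld2 carry the only rings, both for formerly obese against control mice, and Atf4 is the only gene with estimates below 0 in both comparisons that involve formerly obese mice and with values near 0 in obese mice.

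Between formerly obese and obese mice none of the 10 genes was called, beside 2.65% of all tested genes, and none passed on both p-values alone (4.9% of all genes). DESeq2 called 0. The estimates were higher in formerly obese mice for 7 genes (50.9% of all genes), with a median log2 fold change of 0.09, beside 0.0023 over all genes. At an unadjusted p under 0.05 there were 2 genes, Hsp90b1 (0.13 ± 0.06, SE) and Atf4 (13.4% of all genes). Atf4 was the one gene whose values did not overlap, as for 3.38% of all genes. The 95% interval of the log2 fold change was -0.13 to 0.38 for Hspa5 and -0.13 to 0.20 for Creld2, so neither a return towards the control level nor a further rise could be shown. Both comparisons against control mice use the same control libraries.

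Some markers of other processes and cell types also differed in formerly obese mice. Against control mice, 4 of 9 colonocyte markers (Car4, Krt20, Slc26a3 and Slc9a3) were called higher, with summed CPM of 14110 to 19980 in formerly obese and 10270 to 16860 in control mice. None of the 15 goblet cell markers was called by edgeR in that comparison (4 had an unadjusted p under 0.05, 2 in each direction), and the plasma cell regulator Prdm1, also expressed by enterocytes, was called higher. Of 6 tested small intestine markers, 3 were called higher (Apob, Fabp2 and Sis), with summed CPM of 1113 to 1376 in formerly obese and 726.3 to 1055 in control mice. All 4 tested fibroblast markers had higher estimates and none was called by edgeR (2 had an unadjusted p under 0.05), with summed CPM of 6.77 to 30.8 against 2.71 to 13.1 for the smooth muscle and fibroblast list. The value of 30.8 was that of formerly obese replicate 3, and the other formerly obese mice had 6.77 to 13.98. Among the listed genes too low to be tested, Acta2, Myh11, Des, Tagln and Cnn1 had lower means in formerly obese than in control mice. Lum and Pdgfra had higher means. Of 16 immediate early genes, 9 were called lower, with summed CPM of 2200 to 2482 against 2529 to 3044. None of 7 stem and cycling cell, 9 enteroendocrine or 10 immune cell markers tested was called by edgeR. Of these lists only the enteroendocrine one held genes with an unadjusted p under 0.05, 1 in each direction. Over all tested genes, 3.72% were called in formerly obese against control mice, and 1.85% were called higher. In obese against control mice the small intestine markers Apob and Fabp6 (summed CPM of that list 909.4 to 1233) and the goblet cell marker Spink4 were called higher. In that comparison 1.58% of all tested genes were called. Of the 15 goblet cell markers 8 had estimates above and 7 below 0 there, with a median log2 fold change of 0.0092. The part of these differences in the ER stress results was not tested, and in bulk RNA a change in the share of a cell type cannot be told apart from a change of RNA per cell. Over all 15 mice, the level of Hspa5 was related to none of 8 list means at an adjusted permutation p under 0.05, a check chosen after the data were seen. The highest r was 0.599 for small intestine markers (rho 0.532, permutation p 0.0174 and 0.0426, adjusted 0.14 and 0.238), and r was 0.46 without the 2 mice farthest from the median Hspa5 level and 0.23 with group means removed.

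Some of the 10 genes also varied together from mouse to mouse. Across the 15 mice, 19 of 45 pairs of genes had a Benjamini-Hochberg adjusted permutation p under 0.05 for Pearson's r of log2 CPM. All 19 had a positive r, and the median r over the 45 pairs was 0.32. Some of the 19 did not pass on Spearman's rho. These were Xbp1 with Hspa5, Pdia4 and Hsp90b1 (adjusted permutation p = 0.11, 0.0886 and 0.226) and Hsp90b1 with Dnajb9 (0.349). The share of such pairs among other genes was not measured. Hspa5, Hsp90b1, Pdia4 and Creld2 formed the tightest set, with r of 0.793 to 0.981 in their 6 pairs. Hspa5 and Pdia4 had r = 0.981 and rho = 0.971 (permutation p = 1e-05 for each, the smallest that these permutations can give, adjusted p = 0.0003 and 0.000225). Without control replicate 2 and formerly obese replicate 2, the mice farthest from the median of Hspa5, r was 0.962, and with group means removed it was 0.97.

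Hspa5 and Creld2 had r = 0.926 and rho = 0.946 (permutation p = 2e-05 and 1e-05, adjusted 0.0003 and 0.000225), and r was 0.936 without these 2 mice. Dnajb9 and Xbp1 were related to each other, with r = 0.822 and rho = 0.704 (permutation p = 0.00037 and 0.00469, adjusted 0.00257 and 0.0208), and less so without control replicate 5 and formerly obese replicate 2, the mice farthest from the median of Dnajb9 (r = 0.538). Sdf2l1 was related to Hsp90b1, with r = 0.794 and rho = 0.807 (permutation p = 0.00029 and 0.00046, adjusted 0.00257 and 0.00517). Its r with Dnajb9 and with Xbp1 was 0.247 and 0.251, and neither passed (adjusted permutation p = 0.532 and 0.531).

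Atf4, Ddit3 and Herpud1 stood outside this set. Of their 21 pairs with the other 7 genes only Herpud1 with Dnajb9 passed on Pearson's r (r = 0.594, rho = 0.646, permutation p = 0.0209 and 0.0111, adjusted 0.0495 and 0.0333), and r was 0.463 without the 2 mice farthest from the median of Dnajb9. Atf4 had r of -0.564 to 0.32 with the other 9 genes and no pair passed on r. Its relation with Sdf2l1 was negative, with r = -0.564 (permutation p = 0.0295, adjusted 0.0633) and rho = -0.671 (permutation p = 0.00793, adjusted 0.0255), so that it passed on rho alone. Without formerly obese replicates 3 and 4, the mice farthest from the median of Sdf2l1, r was -0.44, and with group means removed it was -0.328. Its r with Hspa5 was -0.268 (adjusted permutation p = 0.507). With group means removed from all genes, 15 of 45 pairs passed. Without control replicate 2 and formerly obese replicate 2 the count was 8 of 45, so 11 fewer pairs passed without these 2 mice, which were chosen after the data were seen. All 15 libraries share the same normalization, and depth differed between them and was highest in most of the formerly obese libraries.

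**Figure D3:**
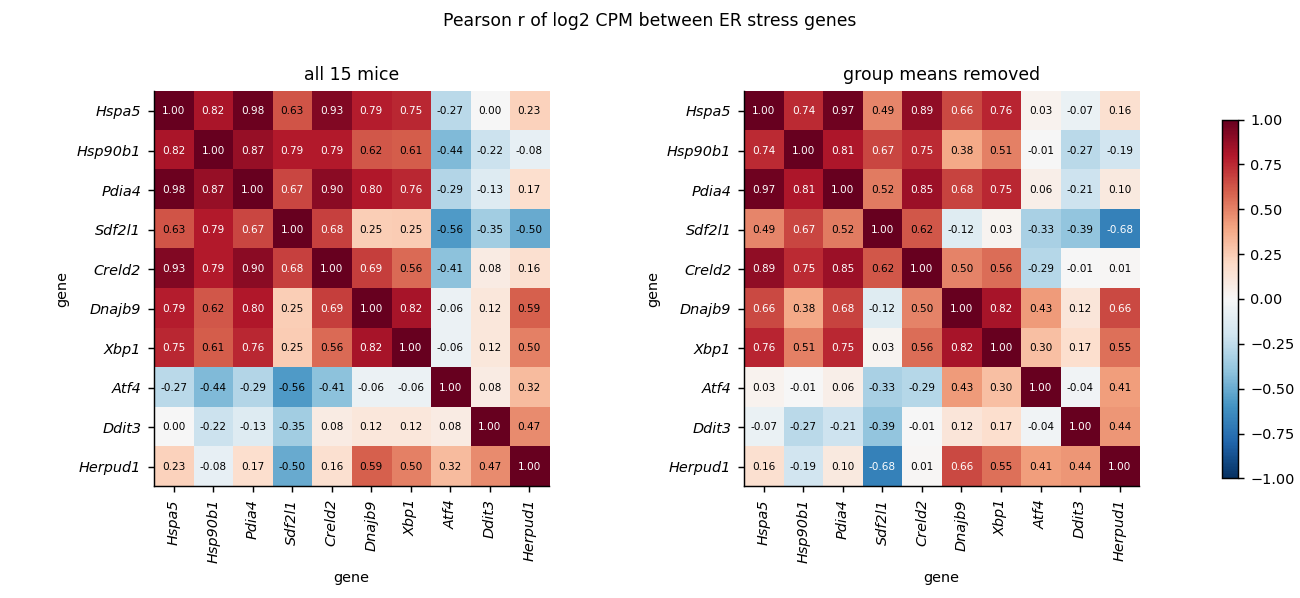
Pearson r of log2 CPM for each pair of the 10 genes (both axes list the genes) across all 15 mice (left) and with group means removed (right), with colours from -1 (blue) to 1 (red). Hspa5, Hsp90b1, Pdia4 and Creld2 have r of at least 0.793 with each other on the left, and Atf4 and Ddit3 show no such relation with them.

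**Figure D4:**
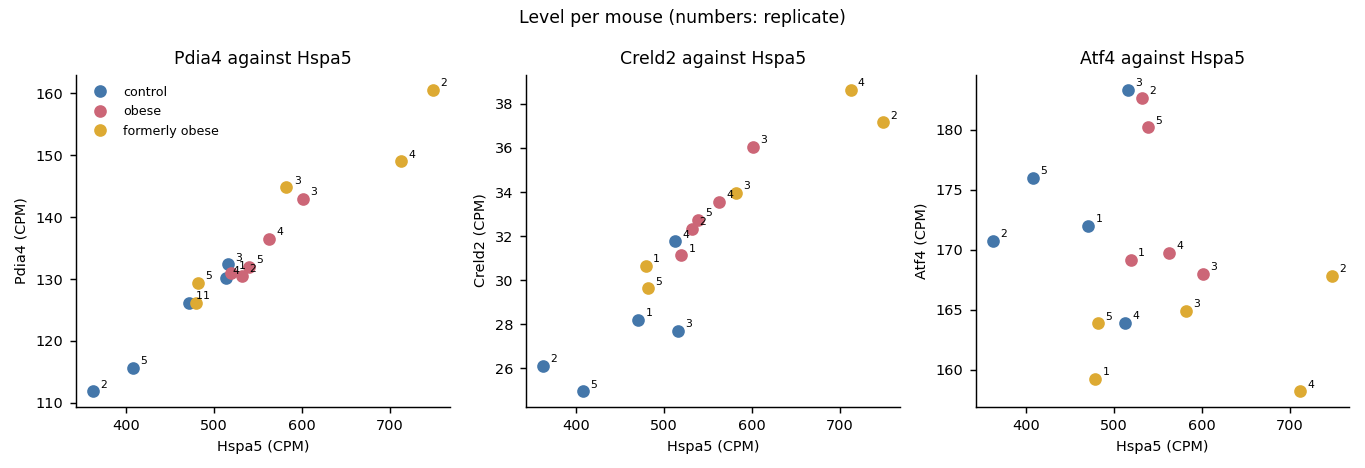
Level of Pdia4, Creld2 and Atf4 (y axes, CPM, not starting at 0) against Hspa5 (x axis, CPM) in each mouse, coloured by group and numbered by replicate. Pdia4 and Creld2 rise with Hspa5 over all mice (r = 0.981 and 0.926), with control replicates 2 and 5 at the low end and formerly obese replicates 2 and 4 at the high end, and Atf4 does not.

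The genes whose levels most resembled the mean standardised level of the 10 genes across 15 libraries, outside the 10, included Manf (r = 0.911), Dnajc3 (0.905), Apol10a (0.90) and Uso1 (0.884). Manf encodes an ER-resident stress-induced factor, Dnajc3 a cochaperone of BiP and Uso1 a tethering factor of ER-to-Golgi transport. With group means removed they were Thg1l (0.935), Heatr3 (0.918), Ddx21 (0.906), Dnajc3 (0.886) and Manf (0.883). Heatr3 and Ddx21 act in ribosome production. These likenesses are descriptions of the same 15 libraries.

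Of 150 other genes of the pathway that were listed, 145 could be tested. None was called in obese against control mice by edgeR's test or by DESeq2. By edgeR, 11 of the 145 had an unadjusted p under 0.05, 8 of them higher, beside 10.9% of all tested genes. In formerly obese against control mice 8 of 145 were called, 4 higher and 4 lower, beside 3.72% of all tested genes. The median log2 fold change of the 145 genes was 0.02, beside 0.20 for the 10 genes. In formerly obese against obese mice 3 were called, 1 higher and 2 lower, beside 2.65% of all genes.

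Among 33 ER chaperones and folding factors, Hyou1, a nucleotide exchange factor of BiP, was higher in formerly obese than in control mice, with a mean of 147 ± 27.9 CPM against 114 ± 13.4 (SD, n = 5; log2 fold change 0.36 ± 0.11, SE, adjusted p = 0.0897, edgeR). Manf was also higher (81.6 ± 10.2 against 66.6 ± 7.48 CPM, 0.29 ± 0.08, adjusted p = 0.0797, edgeR). Both calls were lost without control replicate 2 or 5 or formerly obese replicate 2 or 4, the libraries on which the call of Hspa5 also rested. Among 36 secretory targets of XBP1, Bhlha15, a transcription factor of secretory cells, was called (6.22 ± 2.52 against 3.52 ± 0.88 CPM, log2 fold change 0.82 ± 0.26), and its call was lost under 7 of 23 alternatives.

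Of 30 tested targets of ATF4 and CHOP, 4 were called lower and 1 was called higher in formerly obese than in control mice, beside 3.72% of all tested genes called. Over all 30, 16 estimates were above and 14 below 0, with a median log2 fold change of 0.0021. Gdf15, a stress-induced hormone, fell by 0.71 on the log2 scale (SE 0.19, adjusted p = 0.0664, edgeR) at a low level (2.04 ± 0.52 against 3.31 ± 0.46 CPM). All formerly obese mice lay below all control mice for Gdf15, and values without overlap occurred for 3.62% of all tested genes. Gpt2, an alanine aminotransferase, fell by 0.31, and Ppp1r15a, which encodes the phosphatase subunit GADD34 that ends the translational block, fell by 0.39. Atf3, a transcription factor that is also on the list of immediate early genes, fell by 0.57. Aldh1l2, a mitochondrial folate enzyme, was 0.93 higher at a low level (2.75 ± 0.92 against 1.45 ± 0.40 CPM). Of 23 alternatives, 5 lost the call of Ppp1r15a (without control replicate 1, 2 or 5 or formerly obese replicate 2 or 3; -0.32 to -0.46 over all alternatives), and 3 that of Gpt2 (without control replicate 2 or formerly obese replicate 4 or 5; -0.21 to -0.34). The call of Atf3 was lost under 3 (without control replicate 1 or formerly obese replicate 1 or 5; -0.46 to -0.69), that of Aldh1l2 under 1 (without formerly obese replicate 3) and that of Gdf15 under 0.

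Against obese mice, formerly obese mice had lower Cebpb (log2 fold change -0.53) and Ppp1r15a (-0.38) and higher Vldlr (0.33), a lipoprotein receptor gene whose call was lost under 13 of 23 alternatives. The call of Cebpb was lost with the GC trend removed (-0.28), and that of Ppp1r15a under 5 alternatives (without obese replicate 2 or 5 or formerly obese replicate 2, 3 or 5; -0.30 to -0.45 over all alternatives). None of 9 sensors and processing enzymes of the unfolded protein response, of 26 genes of ER-associated degradation or of 11 genes of the translational brake was called by edgeR in any comparison. In formerly obese against control mice 0, 7 and 1 of them had an unadjusted p under 0.05, beside 16.7% of all tested genes. Of the 26 genes of ER-associated degradation, 3 passed on both p-values in that comparison at a fold under the cutoff. Over all tested genes, 6.96% passed on both p-values there at any fold. The 3 were Edem3, Syvn1 and Sel1l (log2 fold changes 0.21 ± 0.05, 0.23 ± 0.06 and 0.18 ± 0.06, SE). At an unadjusted p under 0.05, 5 of the 26 were higher and 2 lower. Against obese mice, 1 of the 26 passed on both p-values (4.9% of all genes). It was Ubxn6, which was lower (-0.22 ± 0.08, SE). The genes named here were chosen after their values were seen.

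Among 14 tested cytosolic heat shock genes, Hsph1, a nucleotide exchange factor of HSP70, was called higher in obese (log2 fold change 0.54 ± 0.17, SE, adjusted p = 0.225, edgeR) and in formerly obese mice (0.77 ± 0.17, adjusted p = 0.0268, edgeR) than in control mice. The call in obese mice was lost under 8 of 23 alternatives. Hsph1 was the 1 gene of the 14 called in each of these comparisons, beside 1.58% and 3.72% of all tested genes. In obese against control mice, 3 of the 14 passed on both p-values at any fold (2.54% of all genes). Besides Hsph1 they were Bag3, which was higher (0.20 ± 0.05, SE), and Hsp90ab1, which was lower (-0.13 ± 0.04). Dnajb1 was lower in formerly obese than in obese mice (-0.29). The median log2 fold change of these 14 genes was 0.07 in obese and 0.07 in formerly obese mice against control mice.

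**Figure D5:**
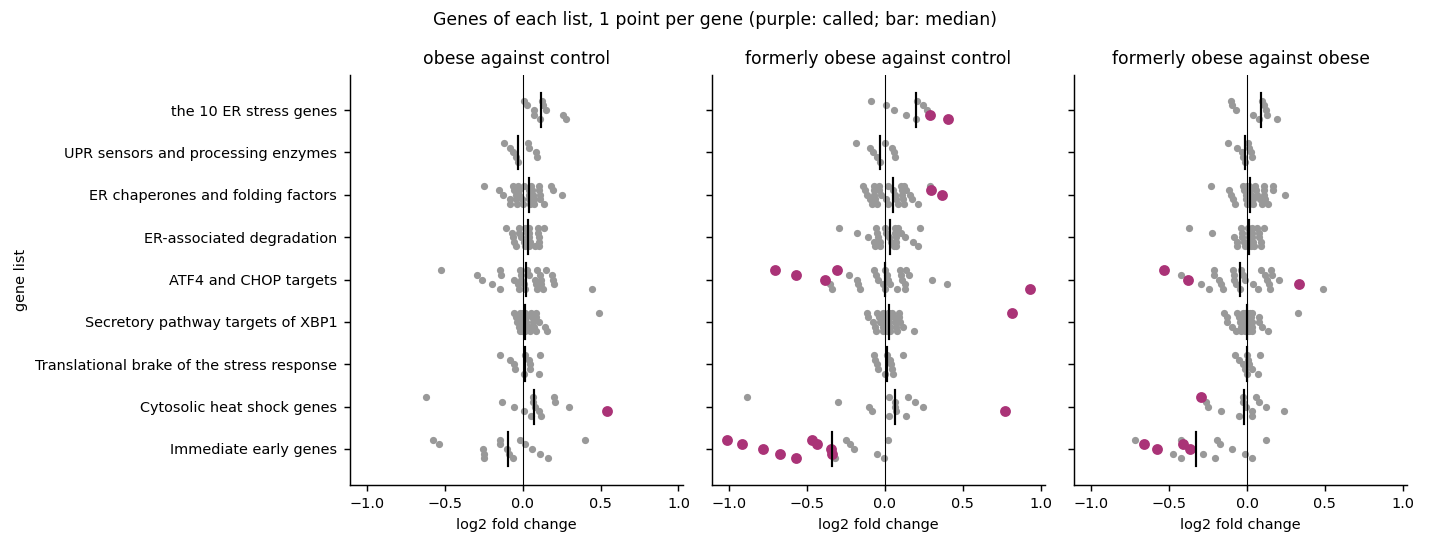
Log2 fold change (x axis) of each tested gene of 9 lists (y axis) in the 3 comparisons, with called genes in purple and the median of each list as a bar. The 10 ER stress genes have medians of 0.12, 0.20 and 0.09 from left to right, the other pathway lists lie near 0, and called targets of ATF4 and CHOP lie mostly to the left in formerly obese against control mice.

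DNA methylation near the 10 genes was covered by a list of 8199 differentially methylated regions (DMRs) of obese against control mice. Within 100 kb of the starts of the 10 genes lay 10 DMRs, 7 with higher and 3 with lower methylation in obese mice, at 5 genes, while 53.9% of 32851 gene starts had at least 1 DMR that near. Herpud1 and Ddit3 had 3 each, Pdia4 2, and Creld2 and Xbp1 1 each. The nearest lay inside Herpud1, in an intron 2806 bases after the start (chr8:94389235-94389286, mm10). It had higher methylation in obese mice and spans 52 bases with 2 CpGs, in capitals on the plus strand of GRCm38.p6.
Herpud1 DMR: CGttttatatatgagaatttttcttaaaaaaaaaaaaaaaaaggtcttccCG
Herpud1 itself had an overlapping level in obese and control mice. The list gives no value per mouse, and no amplicon CpG lay within 100 kb of the start of any of the 10 genes.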

How the data were processed

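The RNA-seq part of the series held 15 libraries, 5 for each of control, obese and formerly obese mice, with groups and replicate numbers from the sample labels. Paired reads of stranded mRNA libraries were mapped to mm10 with TopHat2 2.0.4, and the authors deposited raw counts per gene from HTSeq. The annotation release and the strand mode were not given in the sources used here. The deposited DMR list, from Bismark alignments, holds positions and directions only. The deposited fractions of methylated reads at amplicon CpGs were used for their positions alone. The authors also deposited DESeq2 results for the comparisons against control mice (fold changes on the log2 scale and p-values), which were not used.

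Counts were analysed in R 4.3.3 with edgeR 4.0.16 (filterByExpr, TMM scaling, 1 quasi-likelihood fit of all 15 libraries with group as the only term, two-sided, Benjamini-Hochberg adjusted over 12961 genes). Genes were called at a fold change over 1.2, p under 0.01 and adjusted p under 0.25, the cutoffs of the study. CPM are TMM-scaled, log2 CPM used a prior count of 2, and SEs come from the fit. Library totals of 15230391 to 22762095 set the counting precision. The script was tested on simulated data. Correlations used 100000 permutations. The labels do not tell separate litters or cages, so p-values measure the spread between these mice. Promoter windows and coordinates came from RefSeq on GRCm38.p6, the mm10 assembly, which matched all 10 genes, and the response elements were searched there by their textbook consensus.

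The 10 genes and the gene lists were chosen with earlier results of these data known. Named genes were all 10 genes, of each pathway or stress list at most 5 called genes per comparison by smallest p, and the 5 genes most like the mean of the 10, of which 1 is not reported here. Alternatives were DESeq2 1.42.0, RLE and upper-quartile scaling, no filter or at least 10 counts in every library, only the groups compared, a replicate block, a stricter rule (adjusted p under 0.05 at any fold), leaving out each library and, added after the data were seen, removal of the GC trend.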

Additional observations from a re-analysis of the deposited data

Results flagged for a closer look

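Of 30 sets of 5 mice (10 genes in 3 groups), 3 held a mouse whose distance from the others was large for the range of its group, where chance gives about 1 in 20. Sdf2l1 was 31.0 CPM in control replicate 4 and 22.5 to 23.9 CPM in the other control mice. Dnajb9 was 51.6 CPM in obese replicate 1 and 58.7 to 61.4 CPM in the other obese mice. Dnajb9 was 78.8 CPM in formerly obese replicate 2 and 56.3 to 61.7 CPM in the other formerly obese mice.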

How the results depend on the processing

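Of 690 log2 fold changes of the 10 genes under the alternatives, 654 kept their direction and side of the thresholds, 12 became called, 8 lost a call and 16 changed sign, all 16 in estimates near 0. In obese against control mice the count of the 10 genes called rose from 0 to 1 with only the 2 groups compared (Hspa5) or the GC trend removed (Creld2), and was 0 to 1 when single libraries were left out. The count of other pathway genes called rose from 0 to 1 with a replicate block (Gdf15) and was 0 to 2 over single libraries left out. In formerly obese against control mice the count of the 10 genes fell from 2 to 1 with only the 2 groups compared and to 0 at an adjusted p under 0.05 at any fold (edgeR, 7 at an unadjusted p under 0.05), and was 0 to 4 over single libraries left out. That of other pathway genes was 8 by the main rule and 4 to 9 over single libraries left out. At the stricter rule none of those 8 passed, and the 1 gene that did was Edem3 (adjusted p 0.0407, edgeR). In formerly obese against obese mice, edgeR gave 20 of 145 other pathway genes an unadjusted p under 0.05, beside 13.4% of all genes. The count called fell from 3 to 0 at the stricter rule and to 1 with the GC trend removed. It was 1 to 3 over single libraries left out. The cause of these shifts was not tested. Correlated pairs fell from 19 to 8 without control replicate 2 and formerly obese replicate 2, and DMRs near the genes from 10 to 6 within 50 kb and to 1 within 10 kb, which narrower windows must give.

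Signs changed for Atf4 in obese against control mice (-0.0007 with no filter on low counts, -0.0128 to 0.0252 over single libraries left out), Xbp1 in the same comparison (-0.0153 to 0.0706), Ddit3 in formerly obese against control mice (-0.0018 with upper-quartile scaling, -0.0604 to 0.1065), Herpud1 in the same comparison (-0.0324 to 0.1352), and Creld2 (-0.0141 to 0.0814) and Herpud1 (-0.1557 to 0.0071) in formerly obese against obese mice.

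The labels give replicate numbers and do not say whether mice of the same number were handled together, which was not settled here. Of 15 same-numbered pairs 5 had correlated deviations over 0.1 (-0.231 to 0.333), and 10 of 30 checks put a library nearest to its own number. With a replicate block, Sdf2l1 was called in formerly obese against control mice (0.26, adjusted p 0.116, edgeR), which made 3 of the 10 genes. With 5 mice per group, differences as small as those of Ddit3 and Herpud1 could not be told from 0.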

Other observations

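The spread of the 10 genes differed in size between groups. The SD of CPM was the smallest in obese mice for 8 of the 10 genes (46.3% of all tested genes) and the largest in formerly obese mice for 9 of the 10 (37% of all tested genes). These counts are descriptions, since several of the 10 genes vary together, so that the 10 are not independent of each other. Hsp90b1 had an SD of 10.7 CPM in obese mice, against 46.0 in control and 53.9 in formerly obese mice (n = 5 each). Hspa5 had 32.3 CPM against 67.3 and 125.9 CPM. Formerly obese replicate 2 was the highest of 15 mice for 5 of the 10 genes, and control replicate 5 was the lowest for 4.

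Among all genes other than the 10, those most like Hspa5 across 15 libraries were Manf (r = 0.979) and Hyou1 (r = 0.978), both stress-induced factors of the ER, followed by Atp2a2 (r = 0.916), the calcium pump of the ER. With group means removed, Manf (r = 0.965) and Hyou1 (r = 0.963) were again nearest. This ranking was chosen after the data were seen and carries no test.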
